A study of Mus musculus with 6 samples.

Results

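The cytochrome P450 genes Cyp2b9, Cyp2b10, Cyp2b13, Cyp2c37, Cyp2c39, Cyp2c54, Cyp2c55 and Cyp2c70 were followed in mouse liver together with Nr1i3, which encodes the constitutive androstane receptor (CAR), at 3 reproductive stages. The genes listed are members of the Cyp2b and Cyp2c families plus this receptor and Por. They were chosen with earlier results of these data known, so counts of calls among them describe the set and test nothing. Of the 10 genes listed, 9 had a probe set assigned to that symbol alone, of 18193 genes tested in all. Por, which encodes NADPH-cytochrome P450 reductase, had none and is not analysed here. The livers came from CYP2D6 transgenic mice on the C57BL/6 background at pre-pregnancy, at day 21 of pregnancy and at day 7 postpartum, with 2 animals at each stage. All 3 groups carry the human CYP2D6 transgene, so no value here comes from a mouse without it. The labels call the 2 livers of a stage biological replicates. The p-values set stage differences against the spread between livers of a stage, pooled over stages and moderated over genes. Total RNA of each liver was hybridised to 1 Affymetrix array, and signals are on a log2 scale on which a difference of 1 is a 2-fold difference.

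CAR is a nuclear receptor of hepatocytes. It is held in the cytoplasm in a complex with chaperones, moves to the nucleus when it is activated by compounds such as phenobarbital, and there binds DNA together with the retinoid X receptor. Cyp2b10 is its classical target gene in mouse liver, and genes for glutathione and sulfate conjugation and for drug export are also under its control. The P450 enzymes encoded by these families oxidise drugs, steroids, fatty acids and bile acids with electrons that Por passes on from NADPH. In the mouse, Cyp2b9 and Cyp2b13 are expressed mainly in female liver, in dependence on the pattern of growth hormone secretion.

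The promoter sequences are shown first because the results turn on how differently close relatives behaved. RefSeq windows on GRCm38.p6, from 250 bases before to 50 bases after the annotated start, were found for 9 of the 10 listed genes. Cyp2c54 had no entry, and Cyp2c39 had 2. The windows of Cyp2b13 (chr7:26061245-26061544, plus strand) and Cyp2b9 (chr7:26173159-26173458, plus strand) were identical at 298 of 300 bases, and capitals mark the 2 bases at which each differs from the other.
Cyp2b13: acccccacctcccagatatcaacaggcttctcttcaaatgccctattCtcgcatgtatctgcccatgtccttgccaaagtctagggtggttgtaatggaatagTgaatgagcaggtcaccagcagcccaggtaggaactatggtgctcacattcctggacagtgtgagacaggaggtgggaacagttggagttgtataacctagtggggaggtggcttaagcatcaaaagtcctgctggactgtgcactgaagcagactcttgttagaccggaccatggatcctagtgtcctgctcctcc
Cyp2b9: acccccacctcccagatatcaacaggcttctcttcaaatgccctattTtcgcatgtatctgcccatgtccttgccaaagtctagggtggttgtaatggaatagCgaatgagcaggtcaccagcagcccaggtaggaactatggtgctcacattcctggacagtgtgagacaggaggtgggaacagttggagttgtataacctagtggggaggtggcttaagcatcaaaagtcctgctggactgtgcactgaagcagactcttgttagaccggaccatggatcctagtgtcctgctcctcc
The Cyp2b10 window (chr7:25897408-25897707, plus strand) aligned to each of them with 223 identical bases in 311 columns, or 71.7%. It is shown beside that of Cyp2c55 (chr19:39006769-39007068, plus strand), the other P450 gene of the set that was higher postpartum, and that of the receptor gene Nr1i3 (chr1:171213720-171214019, plus strand), with any motif match in capitals.
Cyp2b10: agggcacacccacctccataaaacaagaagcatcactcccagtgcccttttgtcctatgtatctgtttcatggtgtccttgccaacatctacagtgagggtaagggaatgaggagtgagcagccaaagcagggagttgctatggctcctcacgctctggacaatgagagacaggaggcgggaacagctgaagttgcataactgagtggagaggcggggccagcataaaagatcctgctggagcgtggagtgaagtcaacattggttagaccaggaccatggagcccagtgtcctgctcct
Cyp2c55: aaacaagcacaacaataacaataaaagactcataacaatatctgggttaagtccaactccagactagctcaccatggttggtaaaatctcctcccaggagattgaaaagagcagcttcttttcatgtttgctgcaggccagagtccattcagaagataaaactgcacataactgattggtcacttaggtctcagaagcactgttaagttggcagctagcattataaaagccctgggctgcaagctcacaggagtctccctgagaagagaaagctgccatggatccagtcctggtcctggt
Nr1i3: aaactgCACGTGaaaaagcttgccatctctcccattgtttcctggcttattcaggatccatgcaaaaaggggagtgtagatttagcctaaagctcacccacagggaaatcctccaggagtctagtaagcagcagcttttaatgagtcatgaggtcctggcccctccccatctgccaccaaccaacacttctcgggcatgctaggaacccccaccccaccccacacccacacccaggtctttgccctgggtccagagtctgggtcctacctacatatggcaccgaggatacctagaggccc
Both strands were searched for AGGTCA and AGTTCA, core motifs of nuclear receptors, for CACGTG, the E-box, and for TTCNNNGAA, the motif of STAT5. AGGTCA lay at position -138 from the start in both Cyp2b13 and Cyp2b9, at -74 in Cyp2c70 and at -25 in 1 window of Cyp2c39, and AGTTCA lay at -225 in the other Cyp2c39 window. CACGTG lay at -244 in Nr1i3, and no match overlapped another. None of these letters stood in the windows of Cyp2b10, Cyp2c37, Cyp2c55 or Por, and sequence outside the windows was not searched. Among 32851 RefSeq promoters of the same length, 16.3% held AGGTCA, 14.0% AGTTCA, 7.2% CACGTG and 8.3% TTCNNNGAA.

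Array medians over all probe sets lay between 5.09 and 5.15, and the replicates of a stage had Pearson correlations over genes of 0.9969 (pre-pregnancy), 0.9941 (day 21) and 0.9964 (postpartum). The label "liver" was checked against marker genes. The 11 measured hepatocyte markers averaged 14.01 to 14.04 per array at pre-pregnancy, 14.09 to 14.15 at day 21 and 14.05 to 14.07 postpartum. Of these, 2 were higher in pregnancy than before it (Apob and Asgr1). Summed linear signals of the 12 endothelial markers were 6491 to 7908 at pre-pregnancy, 5625 to 5726 at day 21 and 5314 to 5700 postpartum, and 4 of the 12 were lower in pregnancy than before it (Bmp2, Emcn, Kdr and Tek). The 12 Kupffer cell and macrophage markers summed to 10817 to 11337 at pre-pregnancy, 8388 to 10388 at day 21 and 10878 to 11591 postpartum. Of these, 2 were lower in pregnancy (Lyz2 and Timd4). Marco had log2 signals of 6.87 and 7.08 at pre-pregnancy, 7.94 and 7.32 at day 21 and 7.88 and 8.13 postpartum. Postpartum against pre-pregnancy, Marco was called higher and Timd4 lower. The 12 stellate cell markers summed to 12955 to 13453 at pre-pregnancy, 11793 to 11803 at day 21 and 9899 to 11655 postpartum, with 1 lower in pregnancy (Lrat). Of the 7 measured bile duct markers, 4 (Krt7, Sox9, Cldn7 and Cftr) stood below the array median at each stage. The 7 summed to 206 to 270 at pre-pregnancy, 189 to 242 at day 21 and 272 to 447 postpartum, the stage at which Cyp2b10 and Cyp2c55 were also highest. Krt19 had log2 signals of 5.37 and 4.77 at pre-pregnancy, 5.33 and 4.97 at day 21 and 7.07 and 5.30 postpartum. Limma called 0 of the 7 in each comparison, with 0 at an unadjusted p below 0.05 for pregnancy against pre-pregnancy, 3 for postpartum against pregnancy and 2 for postpartum against pre-pregnancy. The 10 measured neutrophil and lymphocyte markers summed to 431 to 456, 536 to 563 and 439 to 486 at the 3 stages in that order. Of them, 6 stood below the array median at pre-pregnancy, 5 at day 21 and 6 postpartum, and Mpo and S100a9 were higher in pregnancy than before it. In pregnancy against pre-pregnancy, 13.7% of all genes were called. The share was 18.2% of hepatocyte, 33.3% of endothelial and 16.7% of Kupffer cell and macrophage markers. It was 8.33% of stellate cell and 20.0% of neutrophil and lymphocyte markers. The part of these markers in the results below was not tested.

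The measured genes did not move as one family. Calls are at an adjusted p below 0.05 in limma, with Benjamini-Hochberg adjustment over all 18193 genes, and the 3 comparisons share arrays. At day 21 of pregnancy against pre-pregnancy, 4 of the 9 genes were called: Nr1i3 was higher, and Cyp2b13, Cyp2c37 and Cyp2c54 were lower. Of all genes, 13.7% were called in that comparison, 5.46% higher and 8.25% lower. The stages did not overlap in the same 4 genes, nor in 59.6% of all genes. At day 7 postpartum against pregnancy, 3 of the 9 were called: Cyp2b10 and Cyp2c55 were higher and Nr1i3 was lower, where 3.29% of all genes were called, 2.41% higher and 0.879% lower. There the stages did not overlap in 5 of the 9, and in 50.1% of all genes. At day 7 postpartum against pre-pregnancy, 4 of the 9 were called: Cyp2b10 and Cyp2c55 were higher and Cyp2b13 and Cyp2c54 lower, where 7.66% of all genes were called, 3.91% higher and 3.75% lower. There they did not overlap in 6 of the 9, and in 52.6% of all genes. The median log2 difference of the 9 genes was -0.035, -0.04 and -0.065 in the 3 comparisons, beside 0.045, -0.01 and 0.025 over all genes. These counts changed when single arrays were left out, which also leaves fewer arrays from which to estimate the spread. The 4 calls of pregnancy against pre-pregnancy became 1 without either pre-pregnancy array and 2 without either pregnancy array. The 3 calls of postpartum against pregnancy became 1 without any one of pre-pregnancy replicates 1 and 2, pregnancy replicate 1 and postpartum replicate 1, and 2 without postpartum replicate 2. The 4 calls of postpartum against pre-pregnancy became 2 without pre-pregnancy replicate 1.

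**Figure D1:**
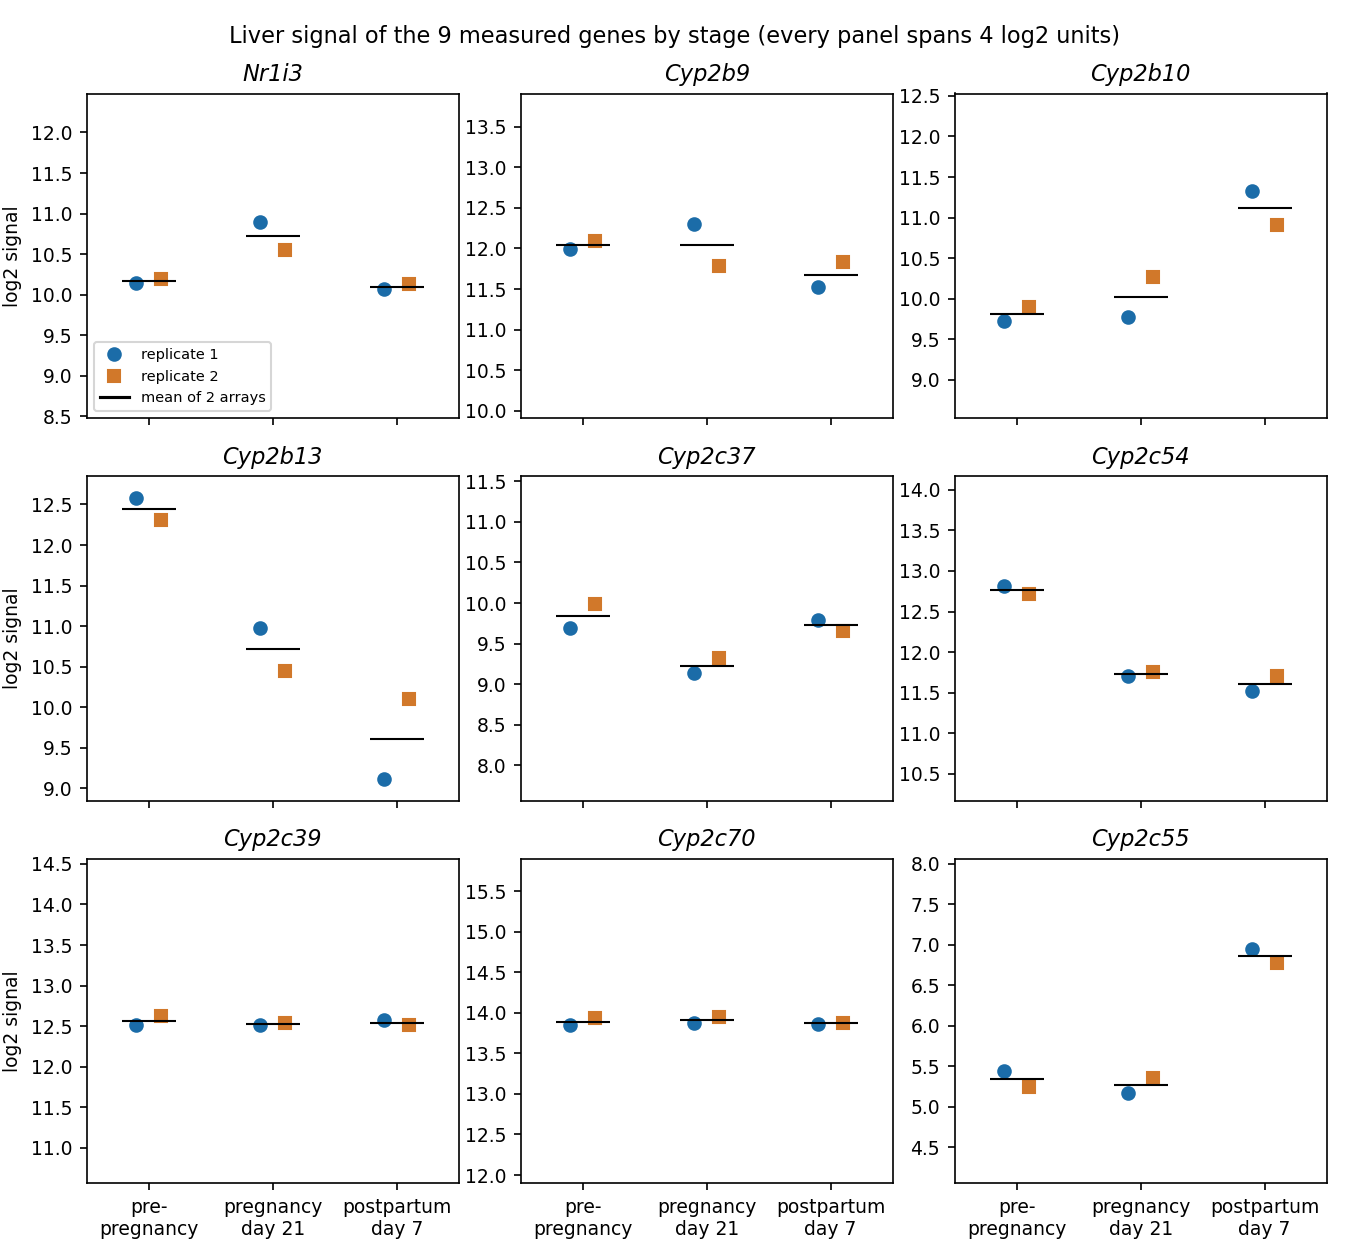
Log2 signal (vertical axis) of each of the 9 measured genes at pre-pregnancy, pregnancy day 21 and postpartum day 7. Points are single arrays, 2 per stage, and lines are stage means. Nr1i3 is highest in pregnancy, Cyp2b10 and Cyp2c55 stand highest postpartum, and the points of Cyp2c39 and Cyp2c70 stay level.

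Nr1i3, the receptor gene itself, was higher in late pregnancy than before or after it. Its log2 signal was 10.14 and 10.19 before pregnancy, 10.89 and 10.55 at day 21 of pregnancy, and 10.07 and 10.13 at day 7 postpartum. Both pregnancy arrays stood above all the others, pregnancy replicate 1 more so, and the postpartum arrays stood below the pre-pregnancy ones. In pregnancy against pre-pregnancy the log2 difference was 0.555 ± 0.130 (SE), or 1.47-fold (limma adjusted p = 0.0307). Postpartum against pregnancy it was -0.62 ± 0.130, 1.54-fold lower postpartum (limma adjusted p = 0.0488). In postpartum against pre-pregnancy it was -0.065, with a 95% interval of -0.367 to 0.237 (limma adjusted p = 0.843). In bulk liver, fewer cells of a type and less RNA per cell cannot be told apart, for this gene and for those below.

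Both calls on Nr1i3 were close to the threshold. For pregnancy against pre-pregnancy the limma adjusted p was 0.174 with pre-pregnancy replicate 1 left out (log2 difference 0.53), 0.107 with its replicate 2 left out (0.58) and 0.089 with pregnancy replicate 1 left out (0.385). Leaving out a postpartum array, or fitting the 2 groups alone, gave 0.0522 (0.555). For postpartum against pregnancy it was 0.107 without either pre-pregnancy array or with the 2 groups alone, 0.101 without pregnancy replicate 1 (-0.45), 0.198 without postpartum replicate 1 (-0.59) and 0.177 without postpartum replicate 2 (-0.65). The call of postpartum against pregnancy was also lost after a second quantile normalization (0.0504), after centring arrays on their medians (0.0556) and with every probe set tested by itself (0.0536). Without pregnancy replicate 2, both calls held.

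The 3 Cyp2b genes took 3 different courses. Cyp2b10, the classical CAR target, was higher postpartum than at either earlier stage. On the brightest of its 3 probe sets the log2 signal was 9.73 and 9.90 at pre-pregnancy, 9.78 and 10.27 at day 21 and 11.33 and 10.91 postpartum. Both postpartum arrays stood above all 4 others, and the pregnancy and pre-pregnancy arrays overlapped. Postpartum against pregnancy, the log2 difference was 1.095 ± 0.194 (SE), or 2.14-fold (limma adjusted p = 0.0298). Postpartum against pre-pregnancy, it was 1.305 ± 0.194, or 2.47-fold (limma adjusted p = 0.0109). Pregnancy against pre-pregnancy, it was 0.21, with a 95% interval of -0.24 to 0.66 (limma adjusted p = 0.50).

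The other probe sets of Cyp2b10 gave the same course postpartum and differed on pregnancy. The second brightest read 9.92 and 10.07 at pre-pregnancy, 9.51 and 10.02 at day 21 and 11.13 and 10.86 postpartum. The dimmest read 9.94 and 10.08 at pre-pregnancy, 9.35 and 9.76 at day 21 and 11.12 and 10.84 postpartum. On all 3 the postpartum arrays were the highest, while the pregnancy arrays averaged below the pre-pregnancy ones on these probe sets and above them on the brightest. In a limma fit of every probe set, the log2 differences of postpartum against pregnancy were 1.23 (adjusted p = 0.0161) and 1.425 (adjusted p = 0.00794), and those of pregnancy against pre-pregnancy were -0.23 (adjusted p = 0.434) and -0.455 (adjusted p = 0.107). The names of these probe sets carry the suffix by which the array marks sets that may match several transcripts. Probe sequences were not used here, so a share of signal from related Cyp2b transcripts was not tested. On the brightest probe set the call of postpartum against pregnancy was lost without either pre-pregnancy array or with the 2 groups alone (limma adjusted p = 0.0795), without pregnancy replicate 1 (log2 difference 0.85, adjusted p = 0.0708), without postpartum replicate 1 (0.885, 0.141) and without postpartum replicate 2 (1.305, 0.0543). That of postpartum against pre-pregnancy ended when pre-pregnancy replicate 1 (1.22, 0.125), pre-pregnancy replicate 2 (1.39, 0.0606) or postpartum replicate 1 (1.095, 0.0506) was left out.

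Cyp2b13, a gene of female mouse liver, showed the largest difference among the 9 genes. Its log2 signal was 12.58 and 12.31 at pre-pregnancy, 10.98 and 10.45 at day 21 and 9.12 and 10.10 postpartum. The stages did not overlap, and the postpartum arrays lay farther apart than those of the other stages. Cyp2b13 fell to 3.32-fold lower in pregnancy than before it (log2 difference -1.73 ± 0.306, SE, limma adjusted p = 0.0121). Postpartum it was 7.14-fold lower than before pregnancy (-2.835 ± 0.306, limma adjusted p = 0.00443). Postpartum against pregnancy the difference of -1.105 was not called, with a 95% interval of -1.813 to -0.397 (limma adjusted p = 0.099), but it was without postpartum replicate 2 (-1.595, adjusted p = 0.0426). The call in pregnancy ended when pre-pregnancy replicate 1 (-1.595, adjusted p = 0.118), pre-pregnancy replicate 2 (-1.865, 0.0611) or pregnancy replicate 2 (-1.465, 0.0618) was left out, and with a trended and robust variance (0.0647). That of postpartum against pre-pregnancy ended when pre-pregnancy replicate 1 was left out (-2.70, 0.0743).

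Cyp2b9, whose promoter window is nearly the same as that of Cyp2b13, was not called in any comparison. Its log2 signal was 11.99 and 12.09 at pre-pregnancy, 12.30 and 11.78 at day 21 and 11.52 and 11.83 postpartum. The pregnancy arrays stood on either side of the pre-pregnancy arrays, and the postpartum arrays overlapped only with pregnancy. The log2 difference of pregnancy against pre-pregnancy was 0, with a 95% interval of -0.423 to 0.423, which leaves out the size seen for Cyp2b13. For both postpartum comparisons it was -0.365, with an interval of -0.788 to 0.058 (limma adjusted p = 0.306 against pregnancy and 0.29 against pre-pregnancy). The difference between the relatives can be read within each array, where Cyp2b13 minus Cyp2b9 was 0.59 and 0.22 at pre-pregnancy, -1.32 and -1.33 at day 21 and -2.40 and -1.73 postpartum. These values were separate at every stage and shifted by -1.73 between pregnancy and pre-pregnancy and by -2.47 between postpartum and pre-pregnancy. With 2 arrays against 2, the exact two-sided permutation test gave p = 0.333 for each comparison, the smallest it can give. Each gene has 1 probe set, and whether that probe set also picks up the close relative was not tested.

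**Figure D2:**
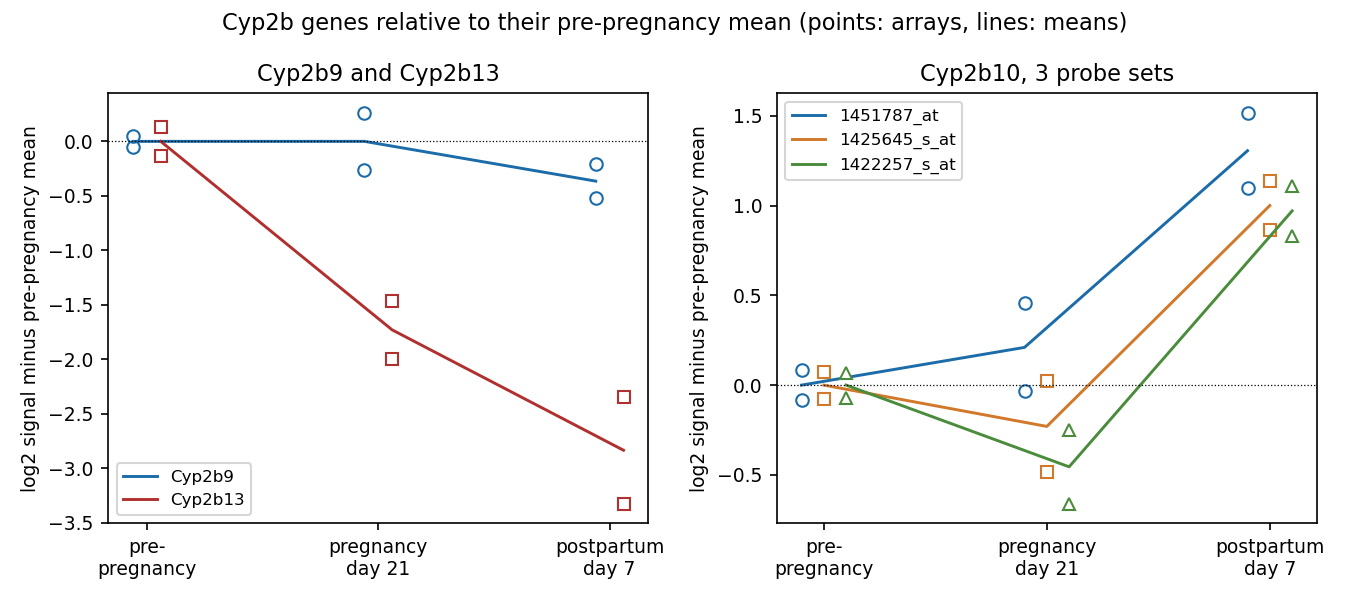
Log2 signal minus the pre-pregnancy mean (vertical axis) of the probe sets of Cyp2b9, Cyp2b10 and Cyp2b13 by stage. Points are single arrays (2 per stage) and lines run through stage means. Cyp2b10 stands highest postpartum on all 3 probe sets. Stage means postpartum are -2.835 for Cyp2b13 and -0.365 for Cyp2b9.

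Among the Cyp2c genes, Cyp2c54 and Cyp2c37 were lower in pregnancy and differed in what followed. Cyp2c54, for an enzyme that oxidises arachidonic and linoleic acid, had log2 signals of 12.82 and 12.72 at pre-pregnancy, 11.70 and 11.75 at day 21 and 11.52 and 11.70 postpartum. The pre-pregnancy arrays stood about 1 log2 unit above the other 4, which lay together. Cyp2c54 fell by 1.045 ± 0.110 (SE) on the log2 scale in pregnancy relative to pre-pregnancy, or 2.06-fold (limma adjusted p = 0.00224). Postpartum it was still 2.24-fold lower than before pregnancy (log2 difference -1.16 ± 0.110, limma adjusted p = 0.00266). Postpartum against pregnancy the log2 difference was -0.115 (limma adjusted p = 0.604). Both calls held with each of the 6 arrays left out in turn, with differences of -1.095 to -0.995 and of -1.25 to -1.07.

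Cyp2c37, for an epoxygenase and hydroxylase of arachidonic acid, had log2 signals of 9.69 and 9.99 at pre-pregnancy, 9.14 and 9.32 at day 21 and 9.79 and 9.66 postpartum. The pregnancy arrays were the lowest, and the postpartum and pre-pregnancy arrays overlapped. Cyp2c37 fell by 0.61 ± 0.134 (SE) on the log2 scale in pregnancy relative to pre-pregnancy, or 1.53-fold (limma adjusted p = 0.0255). Postpartum against pregnancy the log2 difference of 0.495 was not called (95% interval 0.184 to 0.806, limma adjusted p = 0.0948), and postpartum against pre-pregnancy it was -0.115 (limma adjusted p = 0.698). The call in pregnancy ended when pre-pregnancy replicate 1 (-0.76, adjusted p = 0.0671), pre-pregnancy replicate 2 (-0.46, 0.12), pregnancy replicate 1 (-0.52, 0.0874) or pregnancy replicate 2 (-0.70, 0.0521) was left out, and after a second quantile normalization (0.0598).

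Cyp2c55, for an enzyme that makes hydroxy fatty acids from arachidonic acid, was higher postpartum. Its log2 signal was 5.44 and 5.24 at pre-pregnancy, 5.17 and 5.36 at day 21 and 6.95 and 6.77 postpartum. The earlier stages overlapped just above the array medians of 5.09 to 5.15, where signals are compressed, and both postpartum arrays stood clear of them. Postpartum it was 3.02-fold higher than in pregnancy (log2 difference 1.595 ± 0.127, SE, limma adjusted p = 0.00244). Postpartum it was 2.87-fold higher than before pregnancy (1.52 ± 0.127, limma adjusted p = 0.00178). Both calls held with each array left out in turn, the difference from pre-pregnancy running from 1.42 to 1.62. Pregnancy against pre-pregnancy, the log2 difference was -0.075 (95% interval -0.369 to 0.219).

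Cyp2c39 and Cyp2c70 were the level members of the set. Cyp2c39, for an enzyme that hydroxylates retinoic acid in the mouse, had log2 signals of 12.51 and 12.62 at pre-pregnancy, 12.52 and 12.54 at day 21 and 12.57 and 12.52 postpartum. Cyp2c70, for the enzyme that makes muricholic acids in the mouse, had 13.85 and 13.93 at pre-pregnancy, 13.87 and 13.95 at day 21 and 13.86 and 13.88 postpartum. The stages overlapped in both genes. For Cyp2c39 the 95% interval of the log2 difference was -0.268 to 0.198 in pregnancy against pre-pregnancy and -0.253 to 0.213 in postpartum against pre-pregnancy. For Cyp2c70 these intervals were -0.212 to 0.252 and -0.252 to 0.212. Their probe sets are brighter than those of 98.2% and 99.8% of genes.

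**Figure D3:**
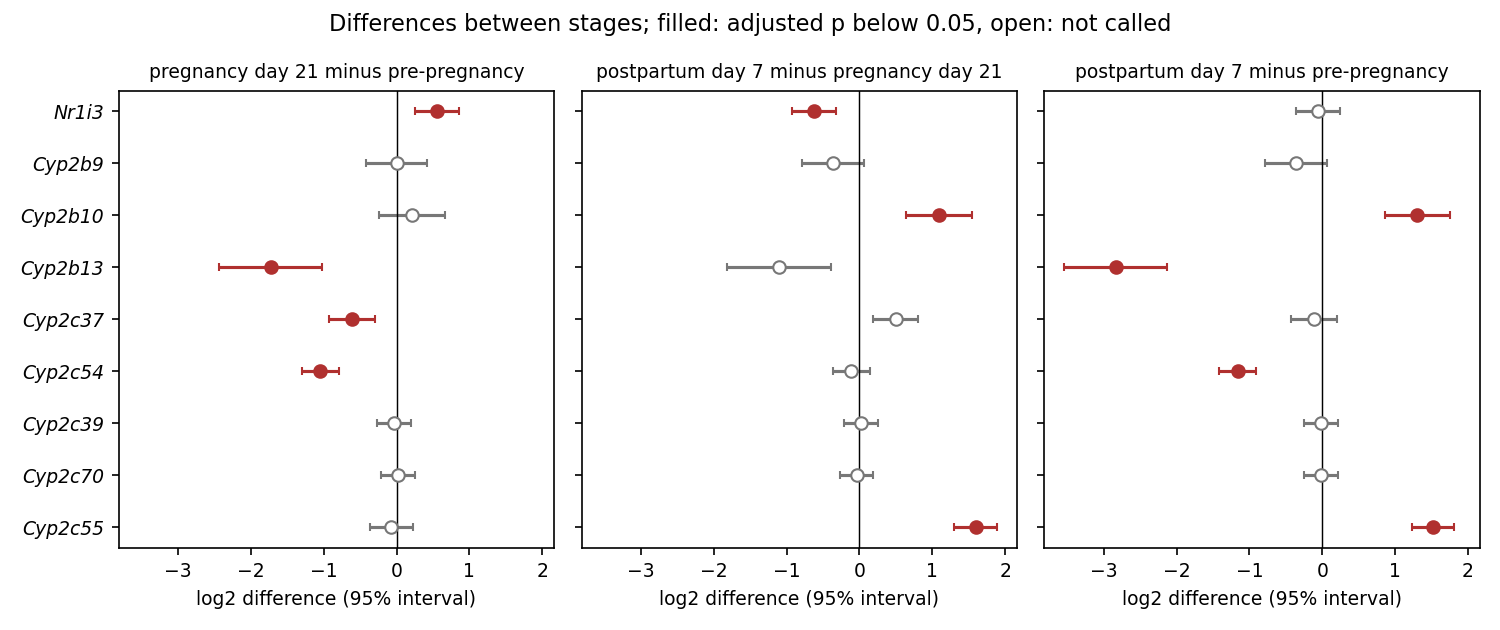
Log2 difference (horizontal axis) of each measured gene in the 3 comparisons, with 95% intervals from limma over 6 arrays; 0 is no difference. Filled points passed an adjusted p of 0.05. Cyp2b13 lies farthest below 0, at -2.835 postpartum against pre-pregnancy, and Cyp2c55 farthest above 0, at 1.595 postpartum against pregnancy.

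Several pairs ran together over the 6 arrays, which is a description of 3 stage levels rather than of 6 independent points. Pearson's r was 0.948 between Cyp2b10 and Cyp2c55 and 0.934 between Cyp2b13 and Cyp2c54. It was -0.892 between Nr1i3 and Cyp2c37 and -0.882 between Cyp2b10 and Cyp2b13. Between Nr1i3 and Cyp2b10 it was -0.488. Among genes that spanned at least 1 log2 unit over the arrays (1538 or 1539, according to the gene compared), the closest course to Nr1i3 was that of Saa3, an acute phase protein gene (r = 0.9903), followed by Vnn1, for pantetheinase (0.9857), and Hoxb5os (0.9834). Saa3 had log2 signals of 8.03 and 8.43 at pre-pregnancy, 10.39 and 9.64 at day 21 and 8.03 and 8.30 postpartum, with the same pregnancy replicate as the highest. The closest to Cyp2b13 were Jdp2 (0.9976), for a repressor of AP-1, Fgf1 (0.978), for a fibroblast growth factor, and Kcnt2 (0.9725). The closest to Cyp2b10 were Slc26a6 (0.9866), for an anion exchanger, Slc25a44 (0.9829) and Tbcel (0.9781). For Cyp2c55 they were Rassf6 (0.9859), Tkt (0.983), for transketolase of the pentose phosphate pathway, and Vldlr (0.9825), for a lipoprotein receptor. For Cyp2c54 they were Cyp2d9 (0.9882), a P450 gene of male mouse liver, Slc10a2 (0.9879), for an ileal-type bile acid transporter, and Gda (0.9833), for guanine deaminase. For Cyp2c37 they were Rbm47 (0.9863), Prodh (0.9767), for proline dehydrogenase, and Hspb1 (0.9764), a small heat shock protein gene.

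Of 13 other mouse Cyp2b and Cyp2c genes listed, 7 were measured, and Cyp2c50 alone was called. It makes up 14.3% of the 7, beside 13.7% of all genes called in pregnancy and 7.66% postpartum, both against pre-pregnancy. The log2 signal of Cyp2c50 was 12.57 and 12.79 at pre-pregnancy, 11.94 and 11.80 at day 21 and 12.12 and 12.19 postpartum. The stages did not overlap, with pregnancy the lowest. Cyp2c50 fell by 0.81 ± 0.118 (SE) on the log2 scale in pregnancy relative to pre-pregnancy, or 1.75-fold (limma adjusted p = 0.00653), and was called with each array left out in turn (-0.92 to -0.70). Postpartum it was 1.44-fold lower than before pregnancy (-0.525 ± 0.118, limma adjusted p = 0.0376). That call ended when pre-pregnancy replicate 1 (-0.635, adjusted p = 0.123), pre-pregnancy replicate 2 (-0.415, 0.166), postpartum replicate 1 (-0.49, 0.146) or postpartum replicate 2 (-0.56, 0.15) was left out. Postpartum against pregnancy, limma called 0 of the 7, with 2 (28.6%) at an unadjusted p below 0.05, beside 20.7% of all genes. Cyp2c29, a CAR-inducible gene of mouse liver, had 13.72 in both arrays at pre-pregnancy, 13.79 and 13.82 at day 21 and 14.16 and 13.88 postpartum, and was not called (limma adjusted p = 0.665 in pregnancy against pre-pregnancy and 0.181 in postpartum against pre-pregnancy).

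CAR target genes outside the Cyp2b and Cyp2c families were called in both directions in pregnancy and only upward between pregnancy and postpartum. Of 28 listed, 22 were measured. In pregnancy against pre-pregnancy 4 were higher (Aldh1a7, Gadd45b, Gstm2 and Gstm3) and 7 lower (Abcc3, Abcc4, Ces2a, Cyp3a11, Gsta4, Sult1d1 and Ugt2b34), with a median log2 difference of -0.022 beside 0.045 over all genes. In postpartum against pregnancy 7 were higher (Abcc3, Abcc4, Ces2a, Gsta2, Gsta4, Gstm1 and Gstm3) and 0 lower. These were 31.8% of the 22, beside 3.29% of all genes, which also ran more upward (2.41% higher and 0.879% lower). In limma 10 (45.5%) had an unadjusted p below 0.05, beside 20.7% of all genes, with a median of 0.182 beside -0.01. In postpartum against pre-pregnancy 6 were higher (Abcc4, Aldh1a7, Gsta2, Gstm1, Gstm2 and Gstm3) and 4 lower (Cyp3a11, Cyp3a13, Sult1d1 and Ugt2b34). The share called was 45.5% of the 22, beside 7.66% of all genes, with a median of 0.222 beside 0.025. The 11 calls in pregnancy became 3 and 4 with pre-pregnancy replicate 1 or 2 left out. The 7 calls of postpartum against pregnancy became 3 without any one of pregnancy replicate 2 and postpartum replicates 1 and 2. The 10 calls of postpartum against pre-pregnancy became 3 without pre-pregnancy replicate 1, 4 with pre-pregnancy replicate 2 or postpartum replicate 2 left out, and 6 without postpartum replicate 1.

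Among the CAR targets, the export pump genes Abcc3 and Abcc4 had their lowest signals in pregnancy. Abcc3, for a pump that exports glucuronides across the basolateral membrane of hepatocytes, had log2 signals of 10.26 and 10.43 at pre-pregnancy, 8.34 and 7.62 at day 21 and 10.12 and 10.13 postpartum. Both pregnancy arrays stood far below the others. Abcc3 fell by 2.365 on the log2 scale in pregnancy relative to pre-pregnancy, or 5.15-fold (limma adjusted p = 0.00128), and postpartum was 4.42-fold higher than in pregnancy (limma adjusted p = 0.00381). Abcc4, for a related pump, had 6.76 and 6.44 at pre-pregnancy, 5.90 and 5.94 at day 21 and 7.52 and 7.34 postpartum, the stages being separate and postpartum the highest. Postpartum it was 2.85-fold higher than in pregnancy (log2 difference 1.51, limma adjusted p = 0.00271). These 3 calls held with each array left out in turn. The difference of Abcc4 in pregnancy against pre-pregnancy (-0.68, limma adjusted p = 0.0174) was not called without pre-pregnancy replicate 1 (-0.52, 0.123), pregnancy replicate 1 (-0.66, 0.055) or pregnancy replicate 2 (-0.70, 0.0593). That of postpartum against pre-pregnancy (0.83, limma adjusted p = 0.0139) was not called without pre-pregnancy replicate 1 (0.99, 0.0587), pre-pregnancy replicate 2 (0.67, 0.0732), postpartum replicate 1 (0.74, 0.0683) or postpartum replicate 2 (0.92, 0.0574).

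Gstm3 and Aldh1a7 were higher at both later stages than before pregnancy, while the conjugation genes Gsta4, Sult1d1 and Ugt2b34 were among those called lower in pregnancy. Gstm3, for a glutathione transferase, had log2 signals of 10.71 and 10.28 at pre-pregnancy, 11.74 and 11.72 at day 21 and 12.57 and 12.54 postpartum, so that each stage stood above the one before. It was 2.35-fold higher in pregnancy than before it (log2 difference 1.235, limma adjusted p = 0.00308) and 4.17-fold higher postpartum than before pregnancy (2.06, limma adjusted p = 0.00138). Postpartum against pregnancy it was 1.77-fold higher (0.825, limma adjusted p = 0.0298), a call lost without pregnancy replicate 1 (0.835, 0.068), pregnancy replicate 2 (0.815, 0.0971), postpartum replicate 1 (0.81, 0.137) or postpartum replicate 2 (0.84, 0.132). Aldh1a7, for an aldehyde dehydrogenase, had 12.25 and 11.88 at pre-pregnancy, 13.76 and 14.04 at day 21 and 13.61 and 13.35 postpartum. Both later stages stood above pre-pregnancy, 3.57-fold higher in pregnancy (limma adjusted p = 0.00128) and 2.67-fold higher postpartum (limma adjusted p = 0.00571). Glutathione transferase genes of the mu class share much sequence, and whether their probe sets pick up each other's transcripts was not tested.

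**Figure D4:**
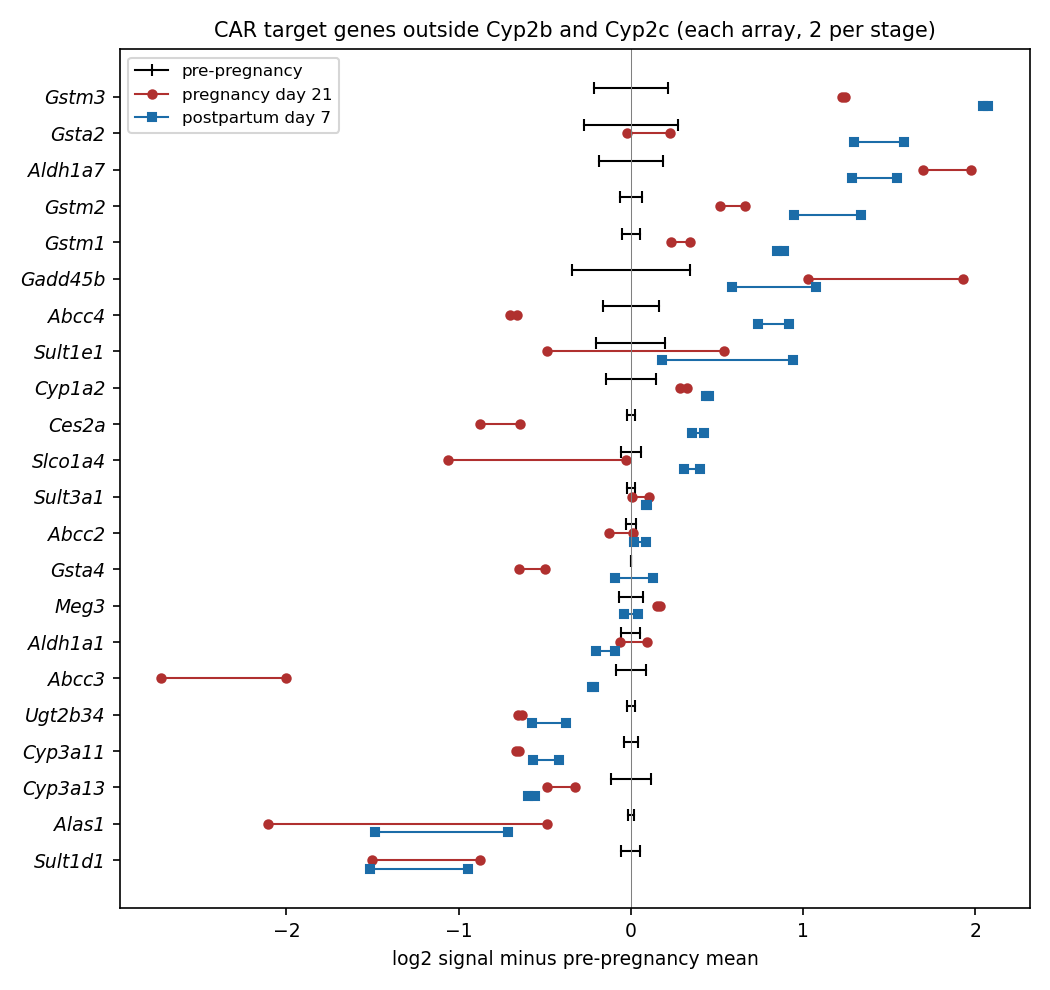
Log2 signal minus the pre-pregnancy mean (horizontal axis) of the 22 measured CAR target genes outside the Cyp2b and Cyp2c families, one row per gene. Marks are single arrays, joined within a stage: pre-pregnancy, pregnancy day 21 and postpartum day 7. Abcc3 lies far left in pregnancy alone, while Gstm3 and Aldh1a7 lie right of 0 at both later stages.

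Of 25 listed genes for CAR's partners and regulators, 21 were measured. In pregnancy against pre-pregnancy 5 of the 21 (23.8%) were called, beside 13.7% of all genes, and in postpartum against pre-pregnancy 3 (14.3%), beside 7.66%. In pregnancy 3 were higher (Dnajc7, a cochaperone that retains CAR in the cytoplasm, Ppp1r16a, for a phosphatase subunit that binds CAR, and Rxrb, for a retinoid X receptor) and 2 lower (Hsp90aa1, for a chaperone, and Nr3c1, for the glucocorticoid receptor). Between postpartum and pregnancy limma called 0, with 4 (19.0%) at an unadjusted p below 0.05, beside 20.7% of all genes. Postpartum against pre-pregnancy 2 were higher (Dnajc7 and Ppp1r16a) and 1 lower (Nr3c1). Nr3c1 had log2 signals of 10.96 and 10.66 at pre-pregnancy, 10.17 and 10.01 at day 21 and 10.15 and 9.87 postpartum, with both later stages below the first. It was 1.65-fold lower in pregnancy (log2 difference -0.72 ± 0.147, SE, limma adjusted p = 0.0198) and 1.74-fold lower postpartum (-0.80 ± 0.147, limma adjusted p = 0.0208) than before pregnancy. The first call on Nr3c1 was lost without pre-pregnancy replicate 1 (-0.57, 0.146) or pregnancy replicate 2 (-0.64, 0.0849), and the second without pre-pregnancy replicate 1 (-0.65, 0.167), pre-pregnancy replicate 2 (-0.95, 0.0559) or postpartum replicate 2 (-0.66, 0.131). The 5 list calls in pregnancy became 0 without pre-pregnancy replicate 1, 1 with pre-pregnancy replicate 2 or pregnancy replicate 2 left out, and 3 without pregnancy replicate 1. The 3 calls of postpartum against pre-pregnancy became 0 without either pre-pregnancy array or postpartum replicate 2, and 2 without postpartum replicate 1.

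Rxra, for the main hepatic partner of CAR, was not called, with log2 signals of 10.29 and 10.58 at pre-pregnancy, 10.85 and 10.73 at day 21 and 10.53 and 10.71 postpartum. Nor was Nr1i2, for the related pregnane X receptor, with 8.49 and 8.54 at pre-pregnancy, 8.60 and 8.46 at day 21 and 8.41 and 8.35 postpartum. Dbp, a clock-controlled transcription factor gene, had 9.97 and 9.58 at pre-pregnancy, 10.05 and 11.55 at day 21 and 10.29 and 10.72 postpartum. The 2 pregnancy arrays of Dbp lay far apart, and it was not called (log2 difference of pregnancy against pre-pregnancy 1.025, limma adjusted p = 0.142), but was without pregnancy replicate 1 (1.775, 0.00798). The time of day of collection is not given in the sources used here, and stage and collection time cannot be told apart. Of 20 listed clock genes, 18 were measured. In pregnancy and postpartum alike Nr1d1, for the repressor REV-ERB alpha, was higher and Cry1, for a clock repressor, was lower than before pregnancy. These 2 calls were 11.1% of the 18, beside 13.7% of all genes in pregnancy and 7.66% postpartum, both against pre-pregnancy. Without 1 array, these 2 calls became 5 in pregnancy without pregnancy replicate 1 and 4 without pregnancy replicate 2. Those of postpartum became 0 without pre-pregnancy replicate 1, 1 without either postpartum array and 5 without either pregnancy array. Postpartum against pregnancy, limma called 0 clock genes, with 1 (5.56%) at an unadjusted p below 0.05, beside 20.7% of all genes, while 3 were called without pregnancy replicate 1 and 1 without either pre-pregnancy array or pregnancy replicate 2.

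Other genes serve P450 enzymes with electrons and heme. Of 9 electron transfer genes listed, 7 were measured. Of the 7, 2 (28.6%) were called in pregnancy against pre-pregnancy, beside 13.7% of all genes, in postpartum against pregnancy 1 (14.3%, beside 3.29%), and in postpartum against pre-pregnancy 3 (42.9%, beside 7.66%). Cyb5r3, for cytochrome b5 reductase, was higher in pregnancy than before it (log2 difference 0.60 ± 0.111, SE, limma adjusted p = 0.0142) and Fdx1, for a mitochondrial ferredoxin, was lower (-0.745 ± 0.123, limma adjusted p = 0.00989). Cyb5b, for the mitochondrial cytochrome b5, was higher postpartum than in pregnancy (1.07 ± 0.197, limma adjusted p = 0.0328). In postpartum against pre-pregnancy Cyb5r3 and Pgrmc2 were higher and Fdx1 was lower. Cyb5a, for microsomal cytochrome b5, was not called, with 13.69 and 13.76 at pre-pregnancy, 13.56 and 13.47 at day 21 and 13.47 and 13.44 postpartum, but was lower postpartum than before pregnancy with a trended and robust variance (-0.27, limma adjusted p = 0.0345, against 0.154 without it). The pregnancy call on Cyb5r3 was lost without pre-pregnancy replicate 1 (0.615, 0.0969), pre-pregnancy replicate 2 (0.585, 0.0767) or pregnancy replicate 2 (0.495, 0.0586) and with the mean of its probe sets (0.332, 0.0726), and that on Fdx1 without pre-pregnancy replicate 1 (-0.60, 0.0792). The call on Cyb5b was lost without either pre-pregnancy array (1.07, 0.0864), postpartum replicate 1 (0.99, 0.159) or postpartum replicate 2 (1.15, 0.124), and the 3 of postpartum against pre-pregnancy became 0 without any one of those 4 pre-pregnancy and postpartum arrays.

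Of 15 genes of heme synthesis and breakdown, 14 were measured. Of the 14, 4 (28.6%) were called in pregnancy against pre-pregnancy, beside 13.7% of all genes, and in each of the other comparisons 2 (14.3%), beside 3.29% for postpartum against pregnancy and 7.66% for postpartum against pre-pregnancy. Hmox1 and Hmox2, for the heme oxygenases, and Ppox, for protoporphyrinogen oxidase, were higher in pregnancy than before it, and Blvrb, for a biliverdin reductase, was lower. Hmox1 had log2 signals of 7.52 and 7.27 at pre-pregnancy, 8.23 and 8.25 at day 21 and 8.18 and 8.26 postpartum, 1.80-fold higher in pregnancy than before it (limma adjusted p = 0.00528). Hmox2 had 9.98 and 9.85 at pre-pregnancy, 10.74 and 10.69 at day 21 and 10.19 and 10.21 postpartum, 1.74-fold higher in pregnancy than before it (limma adjusted p = 0.00403). Both calls held with each array left out in turn. In postpartum against pregnancy Ppox was higher and Hmox2 lower, and in postpartum against pre-pregnancy Hmox1 and Ppox were higher. Alas1, the rate-limiting enzyme of heme synthesis and itself a CAR target, had 12.84 and 12.87 at pre-pregnancy, 10.75 and 12.37 at day 21 and 11.37 and 12.14 postpartum. All later arrays of Alas1 stood below the pre-pregnancy ones with wide spread. The log2 difference of pregnancy against pre-pregnancy, -1.295 ± 0.464 (SE), was not called (limma adjusted p = 0.105) but was without pregnancy replicate 2 (-2.105, 0.0121) and with the replicate number as a block (-1.295, 0.0388). That of postpartum against pre-pregnancy, -1.10, was not called (limma adjusted p = 0.207) but was without either pregnancy array or with the 2 stages alone (-1.10, 0.0358). The 4 list calls in pregnancy became 2 without either pre-pregnancy array. The 2 of postpartum against pregnancy became 1 without pregnancy replicate 2 and 0 without any other single array, and the 2 of postpartum against pre-pregnancy became 0 without pre-pregnancy replicate 1, 1 with pre-pregnancy replicate 2 or postpartum replicate 2 left out, and 3 without either pregnancy array.

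Genes that differ between the sexes in mouse liver give a setting for Cyp2b9, Cyp2b13 and Cyp2c39, which are on the female list themselves. Of 23 female-biased genes listed, 17 were measured. The share of the 17 called was 47.1% in pregnancy against pre-pregnancy, beside 13.7% of all genes. It was 11.8% in postpartum against pregnancy, beside 3.29%, and 41.2% in postpartum against pre-pregnancy, beside 7.66%. In pregnancy against pre-pregnancy 4 were higher (Atp6v0d2, Cyp3a16, Cyp3a44 and Nipal1) and 4 lower (Cyp2b13, Fmo2, Ntrk2 and Prom1). Prom1 was higher and Cyp3a16 lower postpartum than in pregnancy, and in postpartum against pre-pregnancy 4 were higher (Cyp3a16, Cyp3a44, Prom1 and Sult2a2) and 3 lower (Cyp2b13, Fmo2 and Ntrk2). Cyp3a16, a P450 gene of female mouse liver, had log2 signals of 9.95 and 10.19 at pre-pregnancy, 12.21 and 12.39 at day 21 and 11.75 and 11.68 postpartum. Both later stages stood above pre-pregnancy. It was 4.69-fold higher in pregnancy than before it (limma adjusted p = 0.000227), and this held with each array left out in turn. Of 23 male-biased genes, 18 were measured. In pregnancy against pre-pregnancy 1 was higher (Gstp1) and 8 lower (C8b, Cyp2d9, Cyp4a12a, Hsd3b5, Mup3, Nudt7, Ugt2b1 and Ugt2b38). Postpartum against pre-pregnancy the counts were the same, but Slco1a1 was called lower and Hsd3b5 was not. In each of these comparisons 9 of the 18 were called, beside 13.7% of all genes in pregnancy and 7.66% postpartum. The median log2 difference of the 18 was -0.565 in pregnancy and -0.542 postpartum relative to pre-pregnancy, beside 0.045 and 0.025 over all genes. Cyp2d9, a male-biased P450 gene, had 8.78 and 8.68 at pre-pregnancy, 6.80 and 6.34 at day 21 and 6.16 and 6.44 postpartum, 4.47-fold lower in pregnancy than before it (limma adjusted p = 0.000735). Nudt7 was the 1 male-biased gene called postpartum against pregnancy (5.56%, beside 3.29% of all genes), and it was higher.

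The counts on these lists also moved with single arrays. The 8 female-biased calls in pregnancy became 3 without pre-pregnancy replicate 2 and 5 without any one of pre-pregnancy replicate 1 and pregnancy replicates 1 and 2, and the 7 of postpartum against pre-pregnancy became 3 without pre-pregnancy replicate 1 and 4 with pre-pregnancy replicate 2 or postpartum replicate 2 left out. The 2 of postpartum against pregnancy became 1 without any one of pre-pregnancy replicates 1 and 2, pregnancy replicate 1 and postpartum replicate 1. The 9 male-biased calls in pregnancy became 4 without pre-pregnancy replicate 1 and 5 with pre-pregnancy replicate 2 left out, and the 9 of postpartum against pre-pregnancy became 1 without pre-pregnancy replicate 1, 4 with pre-pregnancy replicate 2 or postpartum replicate 1 left out, and 5 without postpartum replicate 2. The call on Nudt7 was lost without postpartum replicate 2 (0.91, adjusted p = 0.0667). That on Cyp3a16 in postpartum against pregnancy (-0.585, limma adjusted p = 0.049) was lost without any one of the 6 arrays (-0.675 to -0.495, adjusted p up to 0.21) and in 5 of 8 other settings, among them the replicate number as a block (0.0515). The pregnancy call on Prom1 (-0.88, limma adjusted p = 0.0461) held in 1 of the 6 fits without an array (-1.29 to -0.47).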

How the data were processed

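Total RNA of 6 livers, 2 for each of 3 stages, was labelled by the 3' IVT Express procedure and hybridised to Affymetrix arrays, per the labels' protocols. The authors' deposited values are log2 signals of 45101 probe sets. RMA and Affymetrix Power Tools made them, per the submitters' processing notes; no source used here gives their versions or settings. The log2 base was inferred from the range of 2.69 to 15.05. RMA as usually run evens out the arrays' distributions, which would hide a change shared by most genes, and compresses differences near background.

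Of the probe sets, 34945 had 1 gene symbol in the platform annotation, 932 several, 9160 none here, and 64 were controls. Each of 18193 genes was represented by its brightest probe set by mean signal. limma 3.58.1 in R 4.3.3 fitted a mean per stage over all 6 arrays (3 residual and 4.80 prior degrees of freedom). Tests were two-sided with Benjamini-Hochberg adjustment over all genes and a threshold of 0.05, and SE is moderated. The fit was tested on simulated data.

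The 9 measured genes of the 10 listed are described. The called genes of each list were named, and always Rxra, Nr1i2, Dbp, Alas1, Cyb5a and Cyp2c29. Array values are given for only some of the called genes. A few others were added after their values were seen. The members and lists were chosen with earlier results of these data known. Likeness is Pearson's r over 6 arrays. Promoters come from RefSeq (GRCm38.p6) and were aligned with Biopython 1.88. Alternatives covered normalization, probe set choice, a filter on dim genes, the variance model, a block on replicate number, fits of 2 stages and leaving out each array. The number of arrays limits the precision.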

Additional observations from a re-analysis of the deposited data

How the results depend on the processing

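The main limits are 2 arrays per stage, an unstated log2 base and unknown collection times. Leaving out 1 array moved the number of all genes called in pregnancy against pre-pregnancy to between 323 and 1977 (2494 with all arrays), in postpartum against pregnancy to between 114 and 528 (599) and in postpartum against pre-pregnancy to between 73 and 1582 (1393). Of the measured members, 1 to 3, 1 to 3 and 2 to 4 were then called. With every probe set tested by itself, 4474 and 2677 were called in the comparisons with pre-pregnancy. With only the 2 stages fitted, 203 genes and 1 member were called in postpartum against pregnancy. A second quantile normalization turned the split of all calls in pregnancy against pre-pregnancy to 1284 higher and 1150 lower, beside 993 and 1501, and in postpartum against pregnancy to 286 higher and 189 lower, beside 439 and 160. The labels do not state that replicate numbers pair the livers. Deviations of same-numbered arrays correlated at 0.028, 0.111 and -0.027, which with 2 arrays per stage cannot show whether livers were paired. With the number as a replicate block, 2612, 574 and 1567 genes were called, Nr1i3 lost its call in postpartum against pregnancy (limma adjusted p = 0.0584), and the other members' calls did not change. The following log2 differences turned sign. In pregnancy against pre-pregnancy, Cyp2c70 was -0.01 after quantile normalization, -0.015 after centring, and -0.02 to 0.06 with 1 array left out. Cyp2b10 was -0.16 as the mean of its probe sets and -0.035 without pregnancy replicate 2. With 1 array left out, Cyp2c55 ran from -0.175 to 0.025, Cyp2c39 from -0.09 to 0.02 and Nr1i2 from -0.055 to 0.085 (-0.02 after centring). In postpartum against pregnancy, Cyp2c39 was -0.035 after quantile normalization and -0.01 to 0.04 with 1 array left out, Alas1 then ran from -0.615 to 1.005 and Dbp from -1.045 to 0.455. In postpartum against pre-pregnancy, Cyp2c37 ran from -0.265 to 0.035, Cyp2c39 from -0.075 to 0.035 and Cyp2c70 from -0.06 to 0.02 with 1 array left out. The causes were not tested.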
